A study of Mus musculus with 31 samples.

Results

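The CXC chemokine ligands are small secreted proteins that direct the movement of leukocytes, and 7 of their genes (Cxcl1, Cxcl2, Cxcl3, Cxcl9, Cxcl10, Cxcl16 and Pf4) are described here among the 47069 genes measured in 31 single cells of the mouse lung. The genes were chosen by name, as the rows whose Ensembl identifiers map to these symbols. The cells came from the right lung lobes of 10-week-old adult Csf1r-GFP mice on the B6 background, taken 7 days after a sham thoracotomy, in which the chest cavity is opened without a further procedure. They were sorted as positive for the leukocyte antigen CD45, for the green fluorescent reporter of the CSF1 receptor gene Csf1r and for the macrophage antigen F4/80, and Ly6G is named in the sort without a sign. All 31 cells carry the same labels and no animal is named, so they form 1 group and count as 1 sample: no test between conditions was possible, no p-value was computed, and intervals cover counting error over cells only.

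CXC ligands carry a pair of conserved cysteines separated by another residue. Cxcl1, Cxcl2 and Cxcl3 signal through the receptor Cxcr2 and draw neutrophils into inflamed tissue, and their transcription is switched on rapidly by NF-kappa B in activated macrophages. Cxcl9 and Cxcl10 signal through Cxcr3 on T and NK cells and are induced by interferons, Cxcl10 by NF-kappa B as well. Cxcl16 is made as a membrane protein that can be cut from the cell surface by the proteases Adam10 and Adam17, and it binds Cxcr6. Pf4, also called platelet factor 4, is stored in platelet granules and is also transcribed in some tissue macrophages.

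Of the 31 cells, 20 had Lyz2, the lysozyme gene of myeloid cells, at 1000 FPKM or more (fragments per kilobase of transcript, further scaled to sequencing depth), and these are called Lyz2-high. The lowest Lyz2 value inside this limit was 1229 FPKM, in cell C7 (cells are named by the last part of their sample titles), and the highest outside it was 553 FPKM, in cell D10. All 20 Lyz2-high cells had Csf1r, Tyrobp and Fcer1g, 19 had Ptprc, which encodes CD45, and 15 had Adgre1, which encodes F4/80. Their libraries held 521492 to 4059833 expected counts (median 1591648), of which 87.4 to 95.6% fell on nuclear protein-coding genes. Of the other 11 cells, 10 had under 80% of counts on such genes (32.8 to 61.6%) and stood apart for that reason, and counts are therefore given within the 20 cells and over all 31. A gene counted as present from 1 FPKM upwards, and a value of 0 can be a message that was there but not captured. The monocyte gene Ly6c2 was present in 10 of the 20 Lyz2-high cells and the complement gene C1qb, a marker of interstitial macrophages, in 6, with no cell holding both. Other monocyte markers did not divide the cells in this way: S100a4 was present in 17, the chemokine receptor gene Ccr2 and the fibronectin gene Fn1 in 16 each and F13a1 in 14, and 4 of the 6 C1qb cells (B4, C7, H5 and H8) had Ccr2 at 754, 222, 691 and 705 FPKM. Of 10 alveolar macrophage markers, Siglecf, Marco, Car4, Fabp1, Pparg, Krt79 and Plet1 were present in 0 of the 31 cells. The other 3 were found in Lyz2-high cells, Chil3, which is also in the monocyte list, in 12 at up to 12025 FPKM, Ear2 in 3 at up to 4258 FPKM and Ear1 in 1.

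Cxcl2 was the most widely found of the ligands and Cxcl10 reached comparable levels in fewer cells, while Cxcl3 and Cxcl9 were found in none. Among the 20 Lyz2-high cells, Cxcl2 was present in 17 (85%, exact Clopper-Pearson 95% interval 62.1 to 96.8%), Cxcl10 in 11 (55%, 31.5 to 76.9%), Cxcl16 in 9 (45%, 23.1 to 68.5%), Pf4 in 5 (25%, 8.66 to 49.1%) and Cxcl1 in 3 (15%, 3.21 to 37.9%). Over all 31 cells the counts were 17, 14, 10, 5 and 3 in the same order of genes. Cxcl2, Cxcl1 and Pf4 were thus found in Lyz2-high cells alone. Of the 8534 nuclear protein-coding genes present in at least 1 of the 20 cells, the median gene was present in 3, 12.3% in at least 11 and 4.11% in at least 17. In the 10 libraries with under 80% of counts on protein-coding genes, Cxcl10 was present in 2 and each of the other 6 ligands in 0.

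**Figure D1:**
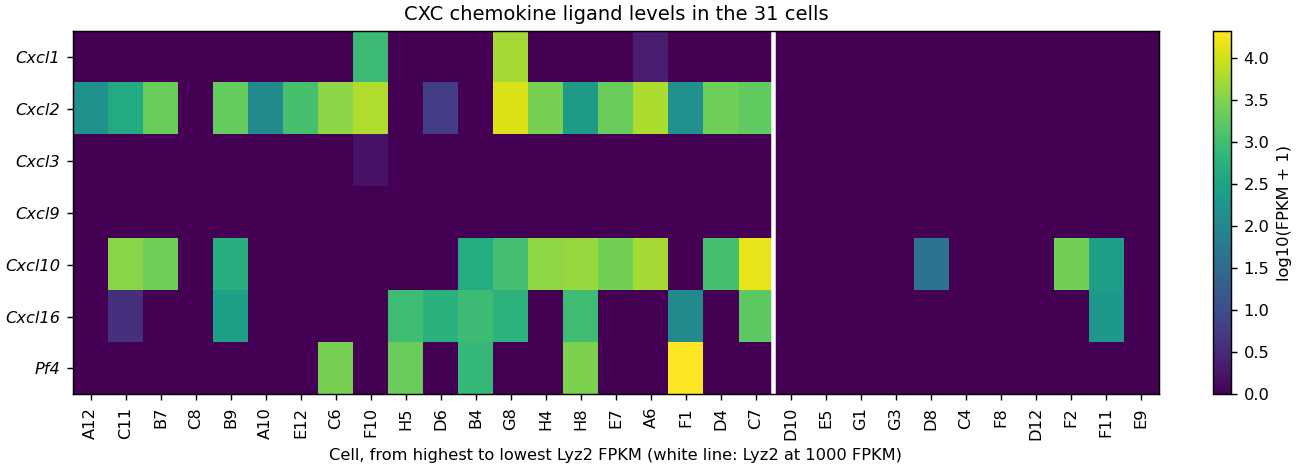
Level of the 7 CXC ligand genes, as log10(FPKM + 1), in the 31 cells ordered from the highest to the lowest Lyz2, with the white line at 1000 FPKM of Lyz2. Cxcl2 fills 17 of the 20 columns left of the line and 0 of the 11 right of it, where Cxcl10 appears in 3 cells and Cxcl16 in 1.

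The ligands were distributed unevenly over the Lyz2-high cells. At least 1 of the 7 was present in 19 of the 20, and at least 2 in 16. The number present per cell was 0 in 1 cell, 1 in 3, 2 in 8, 3 in 6 and 4 in 2. The cell without any, C8, had the fewest counts of the 20 (521492). The summed level of the 7 genes ranged from 0 to 21332 FPKM with a median of 4317 FPKM, which was at most 1.96% of all FPKM in a cell. The gene with the highest level was Cxcl2 in 9 cells, Cxcl10 in 6, Cxcl16 in 2 and Pf4 in 2. In the 3 cells with the largest sums it was a different gene each time: Pf4 made up 98.7% of the sum in F1, Cxcl2 62.7% in G8 and Cxcl10 80.3% in C7.

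**Figure D2:**
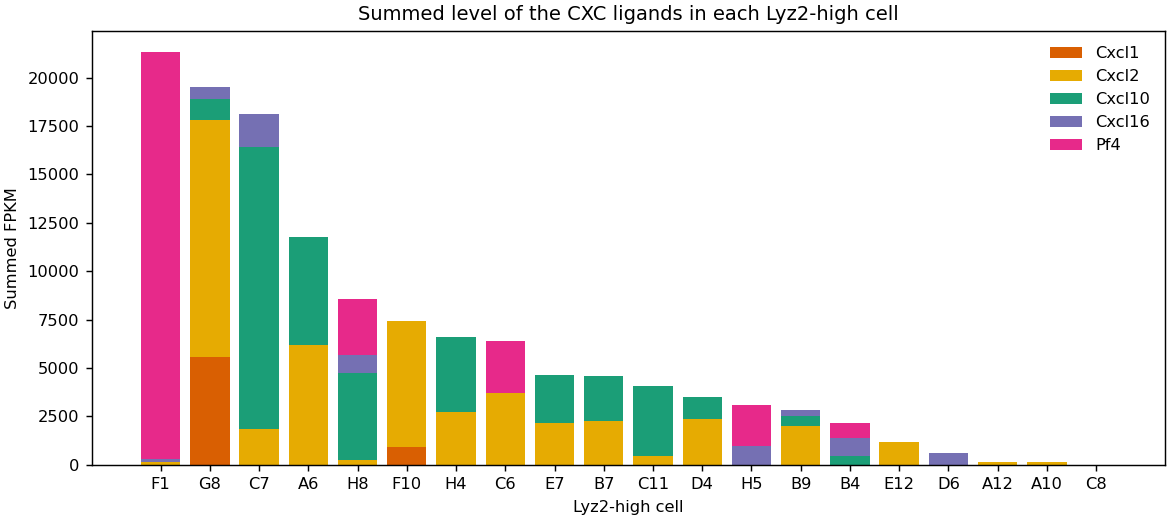
Summed FPKM of the CXC ligand genes in each of the 20 Lyz2-high cells, stacked by gene and ordered by the sum. The tallest bars, F1 at 21332, G8 at 19493 and C7 at 18136 FPKM, are led by Pf4, Cxcl2 and Cxcl10.

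The regulatory stretch before each gene start is shown for the 3 neutrophil-attracting ligands and the 2 interferon-induced ones, because these 5 genes held the same kind of NF-kappa B motif but were found in very different numbers of cells. Starts here are those of RefSeq, which for some genes differ from the GENCODE M21 coordinates given further below. The Cxcl2 window ends at 90903898, past the GENCODE start of that gene at 90903871. The 250 bases before the start are taken from RefSeq on GRCm38.p6, which held 6 of the 7 genes. They are written 5′ to 3′ on the gene's strand, with matches to GGNNNTTCC (an NF-kappa B motif) or GAAANNGAA (the core of the interferon-stimulated response element) on either strand in capitals.
Cxcl1 (chr5:90890995-90891244, plus strand): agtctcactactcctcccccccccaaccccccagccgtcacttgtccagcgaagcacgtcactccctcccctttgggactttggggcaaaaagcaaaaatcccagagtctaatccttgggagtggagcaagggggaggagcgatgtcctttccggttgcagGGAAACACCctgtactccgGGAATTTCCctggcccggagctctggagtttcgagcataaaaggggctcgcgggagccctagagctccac
Cxcl2 (chr5:90903649-90903898, plus strand): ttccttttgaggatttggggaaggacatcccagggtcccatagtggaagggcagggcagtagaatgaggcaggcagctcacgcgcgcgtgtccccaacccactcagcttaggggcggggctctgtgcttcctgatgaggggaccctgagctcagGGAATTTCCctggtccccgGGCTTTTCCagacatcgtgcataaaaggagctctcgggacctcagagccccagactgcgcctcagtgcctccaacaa
Cxcl3 (chr5:90785851-90786100, plus strand): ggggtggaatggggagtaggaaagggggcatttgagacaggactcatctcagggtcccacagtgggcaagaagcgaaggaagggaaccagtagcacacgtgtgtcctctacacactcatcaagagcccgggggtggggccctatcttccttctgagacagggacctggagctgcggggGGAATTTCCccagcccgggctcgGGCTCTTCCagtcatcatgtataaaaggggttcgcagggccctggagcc
Cxcl9 (chr5:92328080-92328329, minus strand): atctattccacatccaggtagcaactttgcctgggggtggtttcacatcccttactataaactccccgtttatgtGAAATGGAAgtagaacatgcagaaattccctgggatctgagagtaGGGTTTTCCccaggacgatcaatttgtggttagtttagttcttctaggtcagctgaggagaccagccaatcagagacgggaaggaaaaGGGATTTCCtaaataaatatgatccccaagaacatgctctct
Cxcl10 (chr5:92348890-92349139, minus strand): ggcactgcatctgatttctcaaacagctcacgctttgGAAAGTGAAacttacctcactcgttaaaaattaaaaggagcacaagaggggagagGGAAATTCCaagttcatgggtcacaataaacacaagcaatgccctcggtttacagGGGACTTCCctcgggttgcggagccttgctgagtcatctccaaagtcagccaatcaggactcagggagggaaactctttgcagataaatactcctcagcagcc

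The run GGAATTTCC, which matched the NF-kappa B motif on both strands at once, occurred in the windows of Cxcl1, Cxcl2 and Cxcl3 alike. It began 70, 96 and 72 bases before the RefSeq start, and the larger distance for Cxcl2 rests on that choice of start. Each of these 3 windows held 1 further match, on the reverse strand in Cxcl1 and on the forward strand in Cxcl2 and Cxcl3. Cxcl10 had matches beginning 158 bases before its start, on both strands, and 103 bases before it, and Cxcl9 had them at 130 and 42 bases. The interferon motif began 213 bases before the start of Cxcl10 and 175 bases before that of Cxcl9, and was in none of the other 4 windows. The window of Pf4 held neither motif. Of all 32851 windows of this length in the table, 15.7% held the first motif and 7.13% the second. A match is a stretch of letters and not a measured binding site, and Cxcl3 and Cxcl9 held matches although they were present in no cell.

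Among the neutrophil-attracting ligands, Cxcl2 was found in nearly every Lyz2-high cell, Cxcl1 in a few and Cxcl3 in none. Cxcl2 (ENSMUSG00000058427; GRCm38 chromosome 5, 90903871 to 90905938) ranged over the 20 cells from 0 to 12231 FPKM with a median of 1515 FPKM. It was at 0 in B4, C8 and H5, at 5.16 FPKM in D6, and between 118 and 12231 FPKM in the other 16. In G8 it ranked 7th among protein-coding genes. Its median in the cells where it was present was 2016 FPKM, against 69.9 FPKM for the same median of the middle gene among all protein-coding genes present in at least 1 Lyz2-high cell.

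Cxcl1 (ENSMUSG00000029380; chromosome 5, 90891241 to 90893115) was present in G8 at 5577 FPKM, in F10 at 901 FPKM and in A6 at 1.19 FPKM. These were the 3 cells with the highest Cxcl2, at 12231, 6516 and 6188 FPKM. The value in A6 was a single read, so that 2 cells held Cxcl1 at 5 FPKM or more, and G8 held 78.6% of the Cxcl1 counts of the Lyz2-high cells. In G8 and F10, Cxcl1 was lower than Cxcl2 in the same cell. Cxcl3 (ENSMUSG00000029379; chromosome 5, 90786103 to 90789600) had 1 read in F10, at 0.65 FPKM, and 0 reads in every other cell. At 1 FPKM or more, Cxcl3 was present in 0 of the 20 Lyz2-high cells. By the limit of 3 cells that a count of 0 allows, up to 15% of such cells could reach 1 FPKM at this depth. How many cells transcribe Cxcl3 without a captured read is unknown. Expected counts of Cxcl1, Cxcl2 and Cxcl3 were whole numbers in all cells, so no fractional division of reads between these related genes was seen.

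Some genes of NF-kappa B activation were found in nearly all Lyz2-high cells and others in few. All 16 genes of that list were present in at least 1 of the 20 cells, ranging from 2 to 20 cells. Their median was 13.5 cells, against 3 for all protein-coding genes found, but the list was chosen with earlier results of these data known. Among the most widespread, the inhibitor gene Nfkbia was present in 20 of 20, the NF-kappa B subunit gene Rel in 18 and the lipopolysaccharide co-receptor gene Cd14 in 17. Of the 17 Cxcl2 cells, 17 had Nfkbia, 17 Rel, 16 the regulator gene Nfkbiz, 15 the feedback inhibitor gene Tnfaip3 and 15 the cytokine gene Il1b. Over all 20 cells, Nfkbiz, Tnfaip3 and Il1b were present in 16 each, so that all 16 Nfkbiz cells were Cxcl2 cells, while the shares for Tnfaip3 and Il1b were close to those over the 20. All 3 Cxcl1 cells had Nfkbiz, Tnfaip3 and Il1b. The genes whose level followed Cxcl2 most closely over the 20 cells, of 3212 compared, were the kinase gene Pim1 (Spearman rho 0.77), the phosphatase subunit gene Ppp1ca (0.73) and the nuclear receptor gene Nr4a2 (0.72); the median gene had 0.02. With Pearson's r in place of Spearman's rho, 1 of these 3 remained among the closest 3 at each pseudocount of 0.1, 1 and 10.

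Factors that control the stability of chemokine messenger RNA were present as well. Zfp36, which encodes tristetraprolin, a protein that binds AU-rich messages such as those of Cxcl1 and Cxcl2 and speeds their decay, was present in 20 of 20 Lyz2-high cells at 2.99 to 2246 FPKM (median 652 FPKM). Its relatives Zfp36l2 and Zfp36l1 were present in 16 and 15, the ribonuclease gene Zc3h12a in 9 and the stabilizing factor gene Elavl1 in 2. All 9 cells with Zc3h12a and the 2 with Elavl1 were Cxcl2 cells, against 17 of all 20. Of the 15 Zfp36l1 cells 12 were Cxcl2 cells, and of the 16 Zfp36l2 cells 13.

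Because neutrophils also transcribe Cxcl2 and Ly6G is named in the sort, neutrophil markers were read beside it. Of 12 such genes, 7 were found in the 17 Cxcl2 cells, at a summed level of 0 to 1768 FPKM per cell (median 30.4 FPKM). The genes S100a9, Retnlg, Ltf, Lcn2 and Camp were present in 0 of the 20 Lyz2-high cells. Csf3r was present in 9 of the 20 at up to 189 FPKM, and 8 of the 9 were Cxcl2 cells. Mmp8 was present in 4 at up to 398 FPKM, of which 3 were Cxcl2 cells. Ly6g was present in 7 cells at up to 115 FPKM, and all 7 were Cxcl2 cells, against 17 of all 20. S100a8 was present in 3, of which the highest was A10 at 1594 FPKM with Cxcl2 at 118 FPKM. The part of such RNA in the Cxcl2 values was not tested.

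Of the interferon-induced ligands, Cxcl10 was found at high levels and Cxcl9 not at all. Cxcl10 (ENSMUSG00000034855; chromosome 5, 92346638 to 92348889) was highest in C7, at 14557 FPKM, where it ranked 6th among protein-coding genes. It then stood at 5589.8 FPKM in A6, 4488 in H8, 3905 in H4, 3616 in C11, 2485 in E7 and 2321 in B7. The remaining 4 cells with it were lower, D4 with 1169 FPKM, G8 with 1066, B9 with 504 and B4 with 465. Cxcl10 was therefore either at 465 FPKM or more or at 0 in every Lyz2-high cell, with no low values between. Cxcl9 (ENSMUSG00000029417; chromosome 5, 92321347 to 92328079) had 0 reads in all 31 cells, and the same limit for the 20 Lyz2-high cells is 15%.

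**Figure D3:**
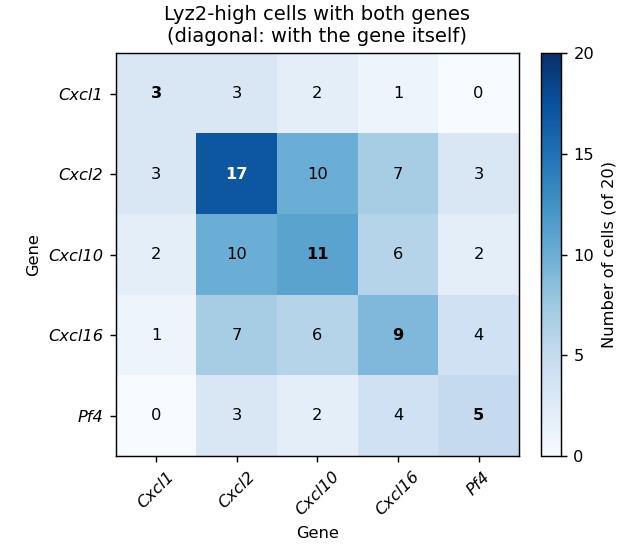
Number of the 20 Lyz2-high cells in which both genes of a pair were present at 1 FPKM or more, with the number for each gene alone on the diagonal. Cxcl2 and Cxcl10 shared 10 cells, and Cxcl1 and Pf4 shared 0.

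Cxcl10 and Cxcl2 shared cells at close to the shares of each gene over all 20. Both were present in 10 cells, which is 90.9% of the Cxcl10 cells, against Cxcl2 in 85% of all 20. It is 58.8% of the Cxcl2 cells, against Cxcl10 in 55% of all 20. B4 was the Cxcl10 cell without Cxcl2. The levels of Cxcl2 and Cxcl10 were only loosely related (Spearman rho 0.40 over 20 cells that differ in depth). The highest Cxcl10 cell, C7, had 1862 FPKM of Cxcl2. The rhos of Cxcl2, Cxcl10, Cxcl16 and Pf4 with total counts were -0.10, -0.06, 0.20 and 0.24. None of the 6 pairs among these 4 genes passed 0.43 in either direction.

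The genes that followed Cxcl10 most closely were the CC chemokine genes Ccl4 (Spearman rho 0.75 over 20 cells) and Ccl3 (0.73), and the interferon-inducible gene Trafd1 (0.73), while the median of 3212 genes was 0.01. Ccl4 was present in 11 of 11 Cxcl10 cells and in 14 of the 20, and Ccl3 in 10 of 11 and in 13. Ccl4 reached 70840 FPKM in H8 and 67486 FPKM in C7, but was at 7.80 FPKM in H4, where Cxcl10 was 3905 FPKM. The cytokine gene Tnf was likewise present in 11 of 11 Cxcl10 cells and in 15 of the 20. This order of genes depended on the measure: with Pearson's r on log2(FPKM + a pseudocount), 1 of these 3 genes was among the closest 3 at a pseudocount of 0.1 or 1 and 0 at 10.

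**Figure D4:**
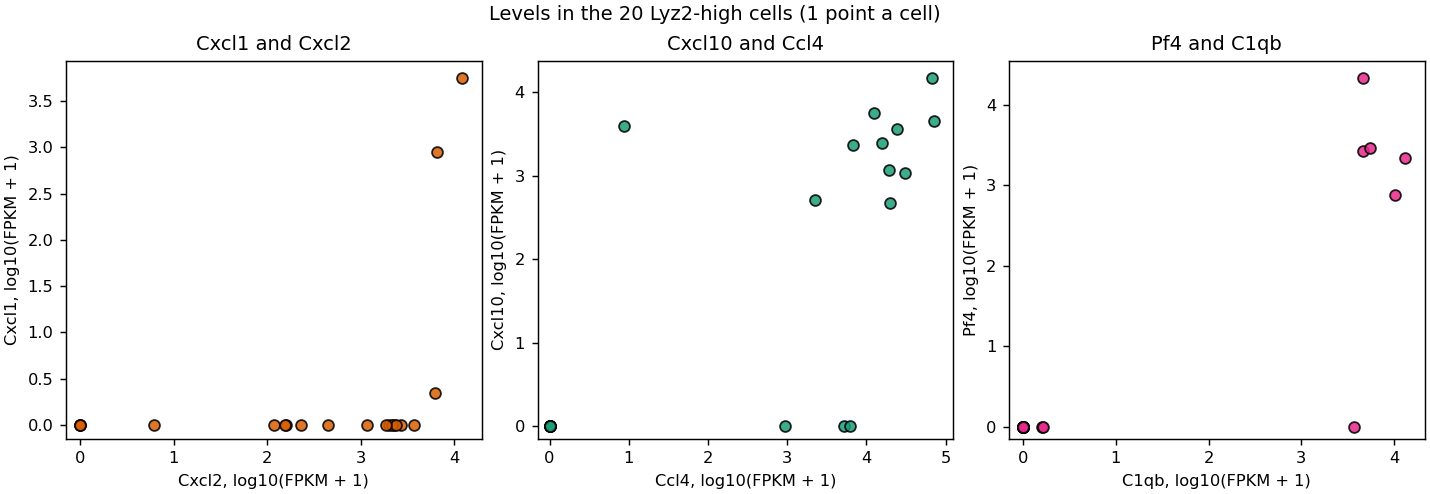
Levels of pairs of genes in the 20 Lyz2-high cells, as log10(FPKM + 1), with 1 point a cell. Cxcl1 is above 0 in the 3 cells with the highest Cxcl2, the 11 cells with Cxcl10 all have Ccl4, and 5 of the 6 cells with C1qb have Pf4.

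Genes of the interferon response were found in some Cxcl10 cells and few or none of them in others. Of 14 such genes, 12 were present in at least 1 Lyz2-high cell (against 39.5% of all protein-coding genes) and Ifit2 and Ifit3 in none. They were present in a median of 3 cells, the same as the median of 3 for all protein-coding genes found. The transcription factor genes Irf1 and Irf9 were present in 7 and 6 cells and the guanylate-binding protein gene Gbp5 in 5, of which 3, 5 and 3 were Cxcl10 cells. The antiviral genes Isg15 and Rsad2 were present in 3 cells each, all of them Cxcl10 cells, against 11 Cxcl10 cells among the 20. C7 held 7 of the 14 genes, B7 held 6, C11 held 5, D4 held 4 and E7 held 3. A6, H4 and B9 held 2 each, H8 and G8 held 1 each and B4 held 0. High Cxcl10 was thus found in cells with many of these genes and in cells with few. No Lyz2-high cell without Cxcl10 held as many of the 14 genes as D4. The interferon gamma gene Ifng was present in 0 of the 31 cells, and the receptor genes Ifngr1 and Ifnar2 were present in 16 and 13 of the 20.

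The membrane-bound ligand Cxcl16 (ENSMUSG00000018920; chromosome 11, 70453983 to 70459984) had a highest level of 1716.5 FPKM, below the highest of Cxcl2 and Cxcl10. It stood at that value in C7, and at 967 FPKM in H8, 959.6 in H5, 908 in B4, 619 in G8 and 604 in D6. Lower values were 285 FPKM in B9, 117 in F1 and 3.04 in C11, the last from 3 reads. Of the 9 Cxcl16 cells, 5 had C1qb and 2 had Ly6c2, against 6 and 10 cells with these genes among the 20. Other monocyte markers were more frequent in them, with Ccr2 in 7 of the 9 and 16 of the 20, S100a4 in 6 and 17, Fn1 in 6 and 16 and F13a1 in 5 and 14. All 9 had the apolipoprotein gene Apoe, which 18 of the 20 had. Of the proteases that shed Cxcl16, Adam17 was present in 7 of the 9 cells and 14 of the 20, and Adam10 in 4 of the 9 and 7 of the 20. The genes closest to it were Gatm, which encodes an enzyme of creatine synthesis (Spearman rho 0.82 over 20 cells), the receptor kinase gene Axl (0.80) and the junctional adhesion gene F11r (0.80), present in 5 or 6 cells each, and with Pearson's r 1 of these 3 remained at a pseudocount of 1, 2 at 0.1 and 0 at 10.

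Pf4 (ENSMUSG00000029373; chromosome 5, 90772435 to 90773383) was found in a small set of cells that also held C1q. It stood at 21061 FPKM in F1, 2903 in H8, 2685 in C6, 2149.9 in H5 and 759 in B4, and at 0 in the other 15 Lyz2-high cells. F1 held 78.1% of the Pf4 counts of these cells, and Pf4 ranked 4th there among protein-coding genes. All 5 Pf4 cells had C1qa, C1qb, C1qc and the mannose receptor gene Mrc1, and 0 of the 5 had Ly6c2. Of the 10 classical monocyte markers, 5 were found in the Pf4 cells, Ccr2 in 3, Fn1 in 3, S100a4 in 2, Chil3 in 1 and F13a1 in 1. Their summed level was 8.68 to 811 FPKM in the 5 Pf4 cells, against a median of 10442 FPKM over all 20. C7 was the cell with C1qa, C1qb and C1qc but without Pf4, and its Mrc1 was 0.22 FPKM. The genes closest to Pf4 over the 20 cells were the tetraspanin gene Cd81 (Spearman rho 0.92), the lectin gene Mgl2 (0.92) and C1qa (0.90), each present in the 5 Pf4 cells and 1 other, and the same 3 were closest with Pearson's r at each pseudocount.

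Platelet genes were almost absent from the Pf4 cells. Of 10 platelet and megakaryocyte markers, 9 were present in 0 of the 31 cells, among them Ppbp, which encodes the other abundant CXC chemokine of platelets, and the integrin gene Itga2b. The tenth, Clec1b, was present in B4 at 39.1 FPKM, so the summed level of the list in the 5 Pf4 cells ranged from 0 to 39.1 FPKM. Srgn, the gene of the proteoglycan serglycin that holds Pf4 in granules, was present in 4 of the 5 Pf4 cells and 19 of the 20, and was at 0 in F1, the cell with the most Pf4.

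Set out by the other genes of the cells, the ligands were spread as follows. Of the 10 cells with Ly6c2, 9 had Cxcl2, 6 had Cxcl10, 2 had Cxcl16, 2 had Cxcl1 and 0 had Pf4. Of the 6 cells with C1qb, 4 had Cxcl2, 3 had Cxcl10, 5 had Cxcl16, 0 had Cxcl1 and 5 had Pf4. Of the 16 cells with Ccr2, which take in cells of both sets, 13 had Cxcl2, 9 had Cxcl10, 7 had Cxcl16, 2 had Cxcl1 and 3 had Pf4. Over the 20 cells, the Spearman rho with C1qb was -0.23 for Cxcl2, -0.02 for Cxcl10, 0.52 for Cxcl16 and 0.82 for Pf4, given as a description of these cells.

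The remaining CXC ligands were rare. Of 8 further genes, Cxcl13, which attracts B cells through Cxcr5, was present in C6 at 2009.5 FPKM and in H5 at 1247 FPKM, both of them Pf4 cells. Cxcl14 was present in C7 at 60.1 FPKM. Cxcl12 and Cxcl15 were present in 0 of the Lyz2-high cells and in 1 of the other 11 each, and Cxcl5, Cxcl11, Cxcl17 and Ppbp in none of the 31.

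Receptors for these ligands were few in the same cells. Cxcr4, the receptor of Cxcl12, was present in 9 of the 20 at 26.4 to 512 FPKM (median of the 9, 103 FPKM), highest in D6. Cxcr2, the receptor of Cxcl1, Cxcl2 and Cxcl3, was present in 10 of the 20 at 1.10 to 9.74 FPKM. All 10 were Cxcl2 cells, against 17 of all 20. The Cxcr2 levels were below the median of 1515 FPKM of Cxcl2. Outside the Lyz2-high cells Cxcr2 was present in all 10 libraries with under 80% of counts on protein-coding genes, at up to 91.6 FPKM. Cxcr1, Cxcr3, Cxcr5, Cxcr6, Ackr1 and Ackr3 were present in none of the 31 cells, so the receptors of Cxcl9 and Cxcl10 and of Cxcl16 were not detected beside their ligands.

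**Figure D5:**
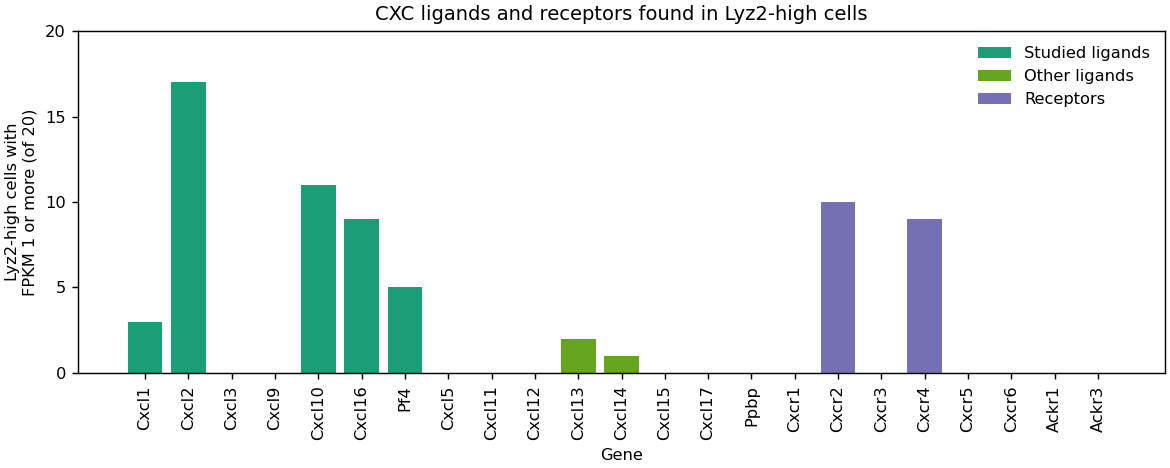
Number of the 20 Lyz2-high cells in which each CXC ligand or receptor gene was present at 1 FPKM or more. Cxcl2 (17 cells) and Cxcl10 (11) lead the ligands, and Cxcr2 (10) and Cxcr4 (9) are the receptors found.

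Since the libraries do not mark strand, genes that overlap a ligand on the other strand were checked. Art3, which overlaps Cxcl10, was present in 2 of the 11 Cxcl10 cells at up to 5.14 FPKM. Zmynd15, which overlaps Cxcl16, was present in 2 of the 9 Cxcl16 cells at up to 84.9 FPKM. The other 5 ligands overlap no annotated gene.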

How the data were processed

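Per the labels' protocols, cells were sorted, captured with the Fluidigm C1 system, and polyadenylated RNA was amplified with a SMARTer kit and made into Nextera XT libraries. RSEM, Trimmomatic, CASAVA 1.8 and the build GRCm38 are listed per the submitters' processing notes; the sources used here do not give the aligner, the annotation or any filter on cells. Expected counts, which are estimated reads per gene, and FPKM values were deposited by the authors. Reads carry no molecular identifiers, so copies made by amplification count as several reads. Of 75 columns in the count table, 31 matched a sample title and 44 were not used. Symbols matched 46488 of 47069 identifiers, and gene types and coordinates came from GENCODE M21. No doublet caller was run.

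Values were computed with Python 3.11.15, numpy 2.4.6, pandas 2.3.3 and scipy 1.17.1. Correlations are Spearman's, over the 20 Lyz2-high cells, for the 4 ligands present in at least 5 of them and protein-coding genes present in at least 5; this step was tested on simulated data. The 3 closest genes are named, with all genes of the CXC, decay, sheddase and storage lists, and of each other list the 4 found in most cells and those found in none. Genes named beyond this rule (Tnf, Isg15, Rsad2, Ifnb1, Ly6c2, Ly6g, S100a8, Clec1b, Ptprc, Adgre1, Art3 and Zmynd15) were chosen after their values were seen. The ligands and lists were chosen with earlier results of these data known, and the motifs were set after the windows had been searched with longer forms. A gene that the rule names and a further motif are not reported here. Alternatives were FPKM 5 or 50, counts of 1 or 10, cells thinned to 120829 reads, Lyz2 at 100 or 5000 FPKM, cells with 80% protein-coding counts, FPKM scaled to equal totals, and Pearson's r with pseudocounts 0.1, 1 and 10.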

Additional observations from a re-analysis of the deposited data

How the results depend on the processing

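Of 91 recounts of cells with a ligand, 90 stayed inside the main exact 95% interval. The exception was Cxcl2 over the 21 cells with at least 80% protein-coding counts, present in 17 of 21 (81.0%) against 17 of 31. All 70 recounts of cells with 2 ligands stayed inside their intervals. The recounts reuse the same cells, and the intervals are wide and cover counting error only. Staying inside them therefore says little about how much a threshold matters. For example, Cxcl1 and Cxcl10 were both present in 2 Lyz2-high cells in the main count and in 1 at the lowest recount. In the Lyz2-high cells or the 25 and 18 cells of the other Lyz2 limits, the count for Cxcl2 ranged from 15 to 17, Cxcl10 from 9 to 12, Cxcl16 from 8 to 9, Cxcl1 from 2 to 3 and Cxcl3 from 0 to 1, and that for Pf4 was 5 in each. The closest genes were less stable: of 12 named, 6 remained with Pearson's r at pseudocount 1, 7 at 0.1 and 4 at 10, 9 after thinning and 12 without the filter. The cause was not tested. The 24 recomputed correlations between ligands ranged from -0.37 to 0.52. No paired analysis was possible because all cells belong to 1 group. With 20 cells and no measure of capture, a ligand at 0 cannot be called absent.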

Other observations

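The 11 cells below the Lyz2 limit held few CXC ligands. Cxcl10 was present in F2 at 2517 FPKM from 3589 reads and in D8 at 43.5 FPKM from 15 reads, and both libraries had under 80% of counts on protein-coding genes. F11, the one such cell above 80%, had Cxcl10 at 263 FPKM and Cxcl16 at 199 FPKM with Lyz2 at 0. The other 8 cells had none of the 7 ligands.

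Ifnb1, the gene of interferon beta, was present in 3 of the 31 cells, F11 at 3741 FPKM, B4 at 2563 FPKM and H8 at 536 FPKM. All 3 were among the 14 Cxcl10 cells, and all 3 also had C1qb and Cxcl16. Of the 14 interferon response genes, F11 held 2, H8 held 1 and B4 held 0.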
